A study of Mus musculus with 6 samples.

Results

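The 50 genes described here encode the machinery that separates chromosomes at cell division. They are proteins of the kinetochore, the spindle checkpoint, the trigger of anaphase, the mitotic kinases with the chromosomal passenger complex, the kinesins and other spindle proteins, condensin with other proteins of mitotic chromosomes, and cohesin. The members were set by name, with earlier results of these data known, and each was found among the 24982 genes listed for every library. RNA was sequenced from a pair of keratinocyte lines of C57BL/6 mice whose source was neonatal skin. The KSFM-Ca2+ cells were derived and kept in a keratinocyte serum-free medium low in calcium, and the DKSFM cells are descendants of them that were adapted to a defined medium with more calcium. Each line had 3 libraries, and neither line received a treatment. The lines therefore differ in medium, in calcium and in a history of adaptation, which cannot be told apart. Nothing in the labels tells whether replicates came from different cultures, so the p-values measure only the spread between these libraries, which may be technical.

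When a cell divides, each pair of sister chromatids is held together by cohesin rings, compacted by condensin and attached through kinetochores, which are built on the centromeric histone CENP-A, to the microtubules of the spindle. The spindle checkpoint delays anaphase until every kinetochore is attached, after which CDC20 activates the anaphase-promoting complex, securin is destroyed and separase cuts cohesin. In the epidermis such divisions take place mainly in the basal layer, and cells that differentiate leave the cell cycle.

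The libraries were made from poly(A) RNA and keep the strand of the transcript. The deposited value for a gene is its mean read coverage per base, written to 1 decimal, which already takes account of gene length. Summed over genes, the KSFM-Ca2+ libraries held 1601676, 1238411 and 1057750 and the DKSFM libraries 1174348, 1239438 and 1170675 of this coverage. Values below are normalized coverage, that is coverage divided by the scaled total of its library. The markers of keratinocytes were present in both lines, with all 8 of 8 detected and Krt14 the most abundant. Their summed coverage was 20870, 21220 and 20870 in the KSFM-Ca2+ and 49840, 46070 and 50290 in the DKSFM libraries, most of it Krt14 in each. The markers did not all move alike, and Itgb4 had 326.2, 322.8 and 314.1 in the KSFM-Ca2+ and 196.5, 182.1 and 197.3 in the DKSFM libraries. Of 8 fibroblast markers, 7 were listed at 0 in every library, Col1a1, Col1a2, Col3a1 and Pdgfrb among them, and only Pdgfra was seen, with a normalized coverage of 0.89 to 1.30 in the KSFM-Ca2+ and 2.10 to 2.34 in the DKSFM libraries. The 6 melanocyte markers summed to 0.5335, 0.89 and 0.7079 in the KSFM-Ca2+ and 0.3185, 0.6995 and 0.212 in the DKSFM libraries, most of it Pmel, with Dct and Tyr at 0 throughout. Cdh5 of endothelial cells, Cd3e of T cells and Atoh1 of Merkel cells were at 0 in every library. The summed coverage of the 4 endothelial markers was 2.82, 3.16 and 3.30 in the KSFM-Ca2+ and 8.28, 8.29 and 7.42 in the DKSFM libraries, nearly all of it Pecam1. The 5 immune markers summed to 10.8, 11.2 and 12.5 in the KSFM-Ca2+ and 13.7, 18.9 and 20.7 in the DKSFM libraries, nearly all of it Cd68, a lysosomal protein. The part of these markers in the results on the members was not tested.

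Nearly all members were lower in the DKSFM cells. Of the 50 members, all of which were tested, 48 (96.0%) were lower at an adjusted p under 0.01, while 37.1% of the 12409 genes tested were. The test was limma on the log2 of the normalized coverage, with p-values adjusted over all 12409 genes. Only Cenpa was higher, against 35.5% of all genes tested, and only Cdc20 did not pass the threshold. A fall of at least 2-fold was seen in 15 members (30.0%), compared with 10.5% of all genes. In the same 48 members that were lower every DKSFM library lay below every KSFM-Ca2+ library, which held for 42.1% of all genes. The median log2 fold change, DKSFM over KSFM-Ca2+, was -0.80 over the members, between -1.66 for Bub1 and 0.34 for Cenpa, and 0.00 over all genes tested. In bulk RNA, fewer dividing cells and less RNA in each dividing cell cannot be told apart.

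**Figure D1:**
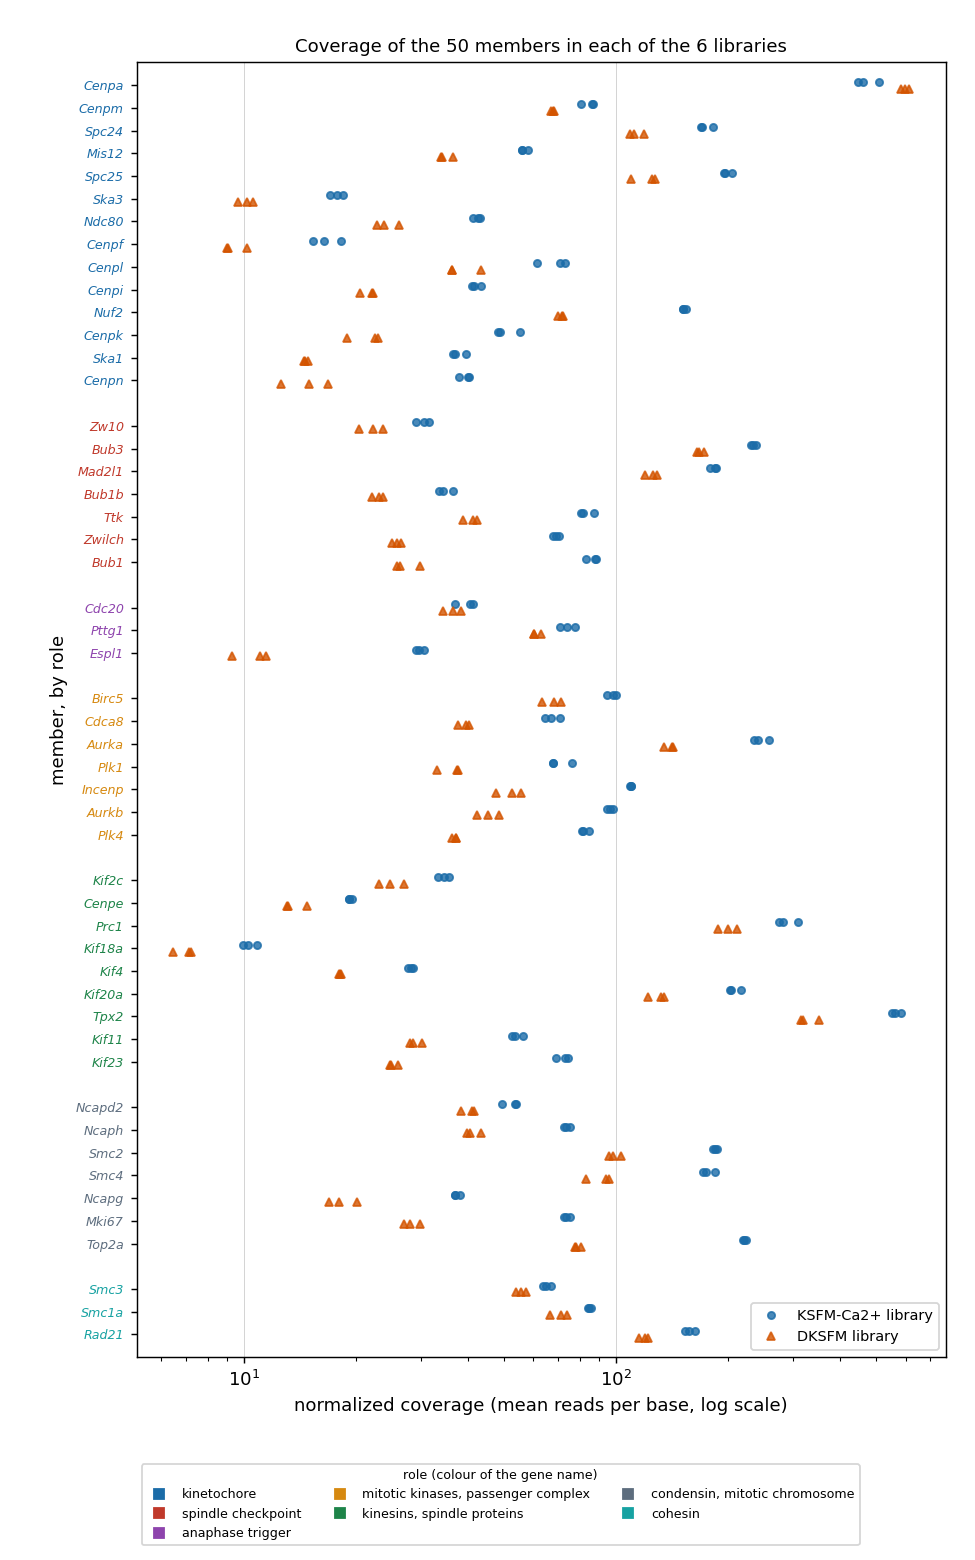
Normalized coverage of each member in the 3 KSFM-Ca2+ libraries (circles) and the 3 DKSFM libraries (triangles), on a log axis, with members grouped by role. The triangles lie to the left of the circles in 48 members, lie to the right in Cenpa and overlap with the circles in Cdc20.

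**Figure D2:**
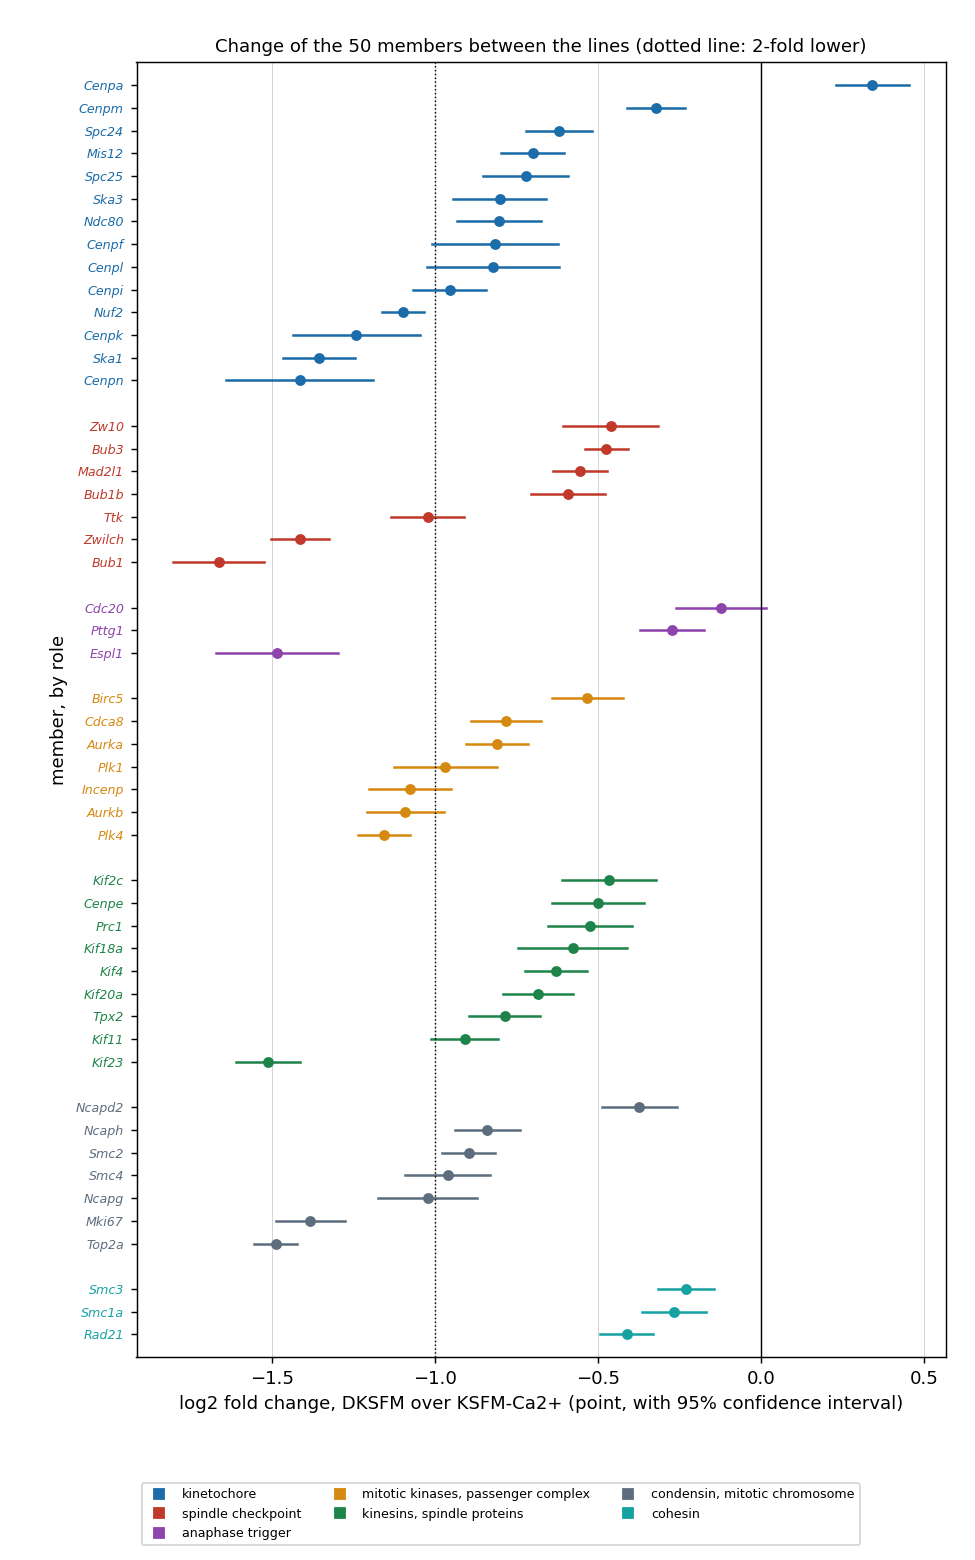
Log2 fold change of each member, DKSFM over KSFM-Ca2+, with its 95% confidence interval, grouped and coloured by role. The dotted line marks a 2-fold fall, which 15 members passed, and only the interval of Cdc20 crosses 0.

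The promoters of many genes of mitosis carry a CCAAT box and, close to the start, a cell cycle genes homology region, a short element that represses transcription in resting cells. Since the members moved together, their promoters were searched for the letters of both. RefSeq promoters on GRCm38.p6, from 250 bases before to 50 after the start, were found for 41 of the 50 members, 45 promoters in all. Aurkb, Incenp, Kif20a, Rad21, Ska1, Smc4, Spc24, Tpx2 and Zwilch were not matched. On either strand, TTTGAA stood in 28 of these 45 promoters (62.2%) and in 17.9% of all 32851 promoters of the same length. TTTAAA, which reads the same on both strands, stood in 9 (20.0%) and in 13.2% of all. CCAAT stood in 33 (73.3%) and in 37.4% of all. In a window from 50 bases before to 50 after the start, chosen after the positions were seen, TTTGAA was found in 22 member promoters (48.9%) and in 4.94% of all. In that window TTTAAA was found in 5 (11.1%) and in 3.64% of all, and CCAAT in 20 (44.4%) and in 13.6%. In the last 100 bases before the start, TTTGAA was found in 10 (22.2%) and in 5.77% of all. CCAAT was found there in 24 (53.3%) and in 18.9%, and TTTAAA in 2 (4.44%) and in 4.39%. Matches of different letters shared bases in 1 of the 45 promoters, that of Cdca8, and a match is a description of the letters, not a site in use.

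Stretches before the start are shown for 6 members, the 3 with the largest falls and the 3 with the highest fold changes among members described in detail below, leaving out bases inside any annotated gene, so that the stretch of Cenpa ends 109 bases before its RefSeq start. They are chr2:127831866-127831965 for Bub1, chr9:61946811-61946910 for Kif23, chr11:99024200-99024299 for Top2a and chr4:118437353-118437452 for Cdc20, all on the minus strand, and chr19:53600296-53600395 for Smc3 and chr5:30666677-30666776 for Cenpa on the plus strand. Each is written 5′ to 3′ on the strand of its gene, with the letters searched, or their reverse complements, in capitals.
Bub1: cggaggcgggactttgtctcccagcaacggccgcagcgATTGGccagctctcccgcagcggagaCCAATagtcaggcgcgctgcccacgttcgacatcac
Kif23: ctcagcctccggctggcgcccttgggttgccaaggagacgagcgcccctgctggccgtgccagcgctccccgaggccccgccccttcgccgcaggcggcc
Top2a: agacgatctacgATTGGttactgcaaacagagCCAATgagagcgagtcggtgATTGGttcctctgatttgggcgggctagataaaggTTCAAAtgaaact
Smc3: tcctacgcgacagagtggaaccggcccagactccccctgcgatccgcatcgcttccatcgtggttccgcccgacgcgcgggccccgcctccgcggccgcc
Cdc20: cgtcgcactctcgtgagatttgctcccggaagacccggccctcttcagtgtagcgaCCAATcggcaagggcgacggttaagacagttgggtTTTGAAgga
Cenpa: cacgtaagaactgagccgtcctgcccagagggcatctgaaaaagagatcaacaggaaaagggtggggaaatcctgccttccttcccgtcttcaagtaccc

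Bub1 and Top2a, with large falls, held CCAAT letters in these stretches on both strands, and Top2a also TTCAAA, the reverse complement of TTTGAA, near its start. Cdc20, which did not pass the threshold, held CCAAT and TTTGAA as well. The stretches of Kif23, Smc3 and Cenpa held none of the letters. In the full promoters, Cenpa had TTTAAA and TTTGAA on either side of its start and CCAAT further out, and Kif23 had CCAAT before and TTTGAA after its start. The 29 members with TTTGAA or TTTAAA had a median log2 fold change of -0.80, and the 12 members without them -0.64. For CCAAT, the 29 members with it had a median of -0.81 and the 12 without it -0.57. Neither kind of letters stood in the promoters of 6 members, Kif18a, Mad2l1, Ncaph, Nuf2, Pttg1 and Smc3, whose median was -0.57. These 6 ranged from -1.10 for Nuf2 to -0.23 for Smc3. The part of the letters in the falls was not tested.

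Kinetochore members fell with a single exception. Of 14, 13 were lower and Cenpa was higher, and the median log2 fold change was -0.81. Cenpa (chr5:30666777-30674830), the histone H3 variant that marks the centromere, had a normalized coverage of 509, 462 and 447 in the KSFM-Ca2+ libraries and 613, 585 and 597 in the DKSFM libraries. All 3 DKSFM libraries were above all 3 KSFM-Ca2+ libraries, with means of 472 ± 32.8 and 598 ± 14.0 (SD, n = 3), a log2 fold change of 0.34 (standard error, SE, 0.05, adjusted p = 2.32e-04). Cenpa was also the kinetochore member with the highest coverage in both lines, above 96.5% of tested genes in the KSFM-Ca2+ cells and 97.5% in the DKSFM cells. Its chaperone gene Hjurp, which is not a member, had a mean of 29.2 in the KSFM-Ca2+ and 22.0 in the DKSFM cells and was lower (log2 fold change -0.40, SE 0.04, adjusted p = 3.16e-05). The ratio of Cenpa to Hjurp was 17.3, 16.1 and 15.2 in the KSFM-Ca2+ libraries and 27.2, 27.1 and 27.1 in the DKSFM libraries. The ratio of Cenpa to Ndc80, which encodes a subunit of the complex that grips microtubules, was 12.3, 10.8 and 10.4 in the KSFM-Ca2+ libraries and 23.5, 24.5 and 26.2 in the DKSFM libraries.

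Among the other members of the inner kinetochore, Cenpn (chr8:116921730-116941507), whose product binds the CENP-A nucleosome, changed most. Its coverage was 40.3, 38.0 and 40.0 in the KSFM-Ca2+ libraries and 15.0, 16.9 and 12.6 in the DKSFM libraries. The lines were far apart although the DKSFM libraries spread more widely, relative to their mean, than for any other member, with means of 39.4 ± 1.27 and 14.8 ± 2.14 (SD, n = 3) and a log2 fold change of -1.41 (SE 0.10, adjusted p = 2.73e-06). Cenpm (chr15:82233779-82244748), whose product belongs to the same inner network, changed least, with 87.0, 86.2 and 80.4 in the KSFM-Ca2+ libraries and 67.7, 67.0 and 68.1 in the DKSFM libraries. The lines did not overlap, yet the fall was small, with a log2 fold change of -0.32 (SE 0.04, adjusted p = 8.27e-05). Cenpk, Cenpi and Cenpl of this network had log2 fold changes of -1.24, -0.95 and -0.82. At the outer kinetochore, the subunits of the NDC80 complex fell unequally, Nuf2 with -1.10, Ndc80 with -0.80, Spc25 with -0.72 and Spc24 with -0.62. Mis12, which links the inner and outer layers, had -0.70. Of the SKA complex, which helps kinetochores follow shrinking microtubules, Ska1 had -1.36 and Ska3 -0.80, and Cenpf, a large protein of the outermost layer, had -0.81. The kinetochore members lower by at least 2-fold were Cenpn, Ska1, Cenpk and Nuf2.

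All 7 members of the spindle checkpoint were lower, with a median log2 fold change of -0.59. Bub1 (chr2:127801122-127831865), a kinase that recruits the checkpoint to kinetochores, had 88.4, 83.2 and 88.0 in the KSFM-Ca2+ libraries and 29.8, 25.8 and 26.3 in the DKSFM libraries. This was the largest fall of any member, from 86.5 ± 2.92 to 27.3 ± 2.21 (SD, n = 3), with a log2 fold change of -1.66 (SE 0.06, adjusted p = 7.13e-08). Bub3 (chr7:131560222-131571895), the binding partner of BUB1, had the highest coverage of the checkpoint members, with 231, 233 and 238 in the KSFM-Ca2+ libraries and 168, 165 and 173 in the DKSFM libraries. The lines were separate, and the log2 fold change was -0.47 (SE 0.03, adjusted p = 1.34e-06). Fgfr2, which the annotation places across Bub3 on the other strand, was higher in the DKSFM cells, with a log2 fold change of 2.74. Zw10 (chr9:49055613-49078775), a subunit of the RZZ complex that brings dynein to kinetochores, had 29.1, 30.5 and 31.5 in the KSFM-Ca2+ libraries and 22.2, 20.4 and 23.6 in the DKSFM libraries. In the main model it changed least of the checkpoint members, by a log2 fold change of -0.46 (SE 0.06, adjusted p = 1.87e-04), close to Bub3. With quantile normalization Bub3 changed least, with -0.42 against -0.50 for Zw10, as it did without DKSFM replicate 3, with -0.49 against -0.51. Bub3 also changed less than Zw10, with -0.50 against -0.51, when only the libraries whose files carry the word combined were compared. Zwilch, another subunit of RZZ, had -1.41, and the kinase gene Ttk had -1.02. With Bub1, these were the 3 checkpoint members lower by at least 2-fold. Bub1b and Mad2l1, whose products bind CDC20 to hold back anaphase, had -0.59 and -0.55.

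Of the 3 members of the anaphase trigger, 2 were lower. Cdc20 (chr4:118432901-118437352), the activator of the anaphase-promoting complex, had 41.4, 40.6 and 36.9 in the KSFM-Ca2+ libraries and 38.4, 34.4 and 36.6 in the DKSFM libraries. The lines overlapped, the means were 39.7 ± 2.39 and 36.5 ± 2.03 (SD, n = 3), and the log2 fold change of -0.12 (SE 0.06, confidence interval -0.26 to 0.02, adjusted p = 0.0936) did not pass the threshold. With each library left out in turn, the log2 fold change of Cdc20 lay between -0.17 and -0.07. Elovl1, which overlaps Cdc20 on the other strand, was higher in the DKSFM cells with a log2 fold change of 0.36. Pttg1 (chr11:43420250-43426251), which encodes securin, the inhibitor of separase, had 73.9, 77.4 and 70.8 in the KSFM-Ca2+ libraries and 60.4, 63.1 and 60.2 in the DKSFM libraries. The fall was small and the lines did not overlap (log2 fold change -0.27, SE 0.04, adjusted p = 3.92e-04). Espl1 (chr15:102296266-102324357), which encodes separase, had 30.5, 29.6 and 29.0 in the KSFM-Ca2+ libraries and 11.5, 9.29 and 11.0 in the DKSFM libraries. Separase transcripts thus fell much more than those of its inhibitor, with a log2 fold change of -1.48 (SE 0.08, adjusted p = 6.73e-07). The confidence intervals of the log2 fold changes, -1.67 to -1.30 for Espl1 and -0.37 to -0.18 for Pttg1, did not overlap.

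All 7 members among the mitotic kinases and the chromosomal passenger complex were lower, with a median of -0.97. Aurka (chr2:172356190-172370535), which encodes the Aurora kinase of the spindle poles, had the highest coverage of them, with 257, 241 and 235 in the KSFM-Ca2+ libraries and 142, 134.5 and 142 in the DKSFM libraries. The libraries of each line lay close together, and the log2 fold change was -0.81 (SE 0.04, adjusted p = 4.88e-07). Plk4 (chr3:40800019-40816883), the kinase that starts the copying of centrioles, had 84.8, 81.0 and 81.4 in the KSFM-Ca2+ libraries and 37.2, 37.3 and 36.4 in the DKSFM libraries. It fell most among these members, with a log2 fold change of -1.16 (SE 0.03, adjusted p = 2.76e-08). Plk1, which encodes a kinase that acts from mitotic entry to cytokinesis, had -0.97. The passenger complex joins Aurora B with INCENP, survivin and borealin, and corrects faulty attachments. Birc5 (chr11:117849251-117855743), which encodes survivin, changed least of these members, with 100.2, 94.9 and 98.4 in the KSFM-Ca2+ libraries and 71.2, 68.4 and 63.5 in the DKSFM libraries. The lines were separate by a wide margin relative to this spread (log2 fold change -0.53, SE 0.05, adjusted p = 1.31e-05). The other subunits fell further, Aurkb with -1.09, Incenp with -1.08 and Cdca8, which encodes borealin, with -0.78. Plk4, Aurkb and Incenp were lower by at least 2-fold.

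The 9 members among kinesins and spindle proteins were all lower, with a median of -0.63, but only Kif23 by at least 2-fold. Tpx2 (chr2:152847964-152895321), whose product activates Aurora A and nucleates microtubules near chromosomes, had the highest coverage, with 584, 562 and 550.4 in the KSFM-Ca2+ libraries and 352, 314 and 319 in the DKSFM libraries. All DKSFM libraries were lower (log2 fold change -0.79, SE 0.05, adjusted p = 1.20e-06). Kif23 (chr9:61915905-61946774), which encodes the kinesin of the centralspindlin complex needed for cytokinesis, had 74.2, 72.8 and 68.9 in the KSFM-Ca2+ libraries and 25.9, 24.7 and 24.9 in the DKSFM libraries. The fall was from 72.0 ± 2.75 to 25.2 ± 0.649 (SD, n = 3), with a log2 fold change of -1.51 (SE 0.04, adjusted p = 1.98e-08). Kif2c (chr4:117159639-117182639), which encodes a kinesin that takes microtubule ends apart, had 35.5, 33.2 and 34.6 in the KSFM-Ca2+ libraries and 27.0, 24.8 and 23.1 in the DKSFM libraries. In the main model it changed least of these 9 members, with a log2 fold change of -0.47 (SE 0.06, adjusted p = 1.58e-04). With quantile normalization Prc1 changed least, with -0.47 against -0.50 for Kif2c. Kif11, the motor that pushes spindle poles apart, had -0.91. Kif20a and Prc1 of the central spindle had -0.68 and -0.52, the chromokinesin gene Kif4 had -0.63, and the chromosome-aligning motors Kif18a and Cenpe had -0.58 and -0.50.

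All 7 members of condensin and mitotic chromosomes were lower, with a median of -0.96. Top2a (chr11:98992943-99024189), the topoisomerase that untangles sister DNA, had 221, 223 and 219 in the KSFM-Ca2+ libraries and 80.7, 77.5 and 78.1 in the DKSFM libraries. The replicates were nearly level within each line, and the fall had the smallest adjusted p of all members (log2 fold change -1.49, SE 0.03, adjusted p = 3.26e-09). Ncapd2 (chr6:125168007-125191701), a subunit of condensin I, had 53.4, 53.9 and 49.3 in the KSFM-Ca2+ libraries and 41.0, 38.5 and 41.5 in the DKSFM libraries. It fell least of these 7 members, with a log2 fold change of -0.37 (SE 0.05, adjusted p = 1.53e-04). The other condensin I subunits fell further, Ncapg with -1.02 and Ncaph with -0.84, as did Smc4 with -0.96 and Smc2 with -0.90, the ATPases shared by both condensins. Mki67, whose product coats mitotic chromosomes, had -1.38. Top2a, Mki67 and Ncapg were lower by at least 2-fold.

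The 3 cohesin members were lower by little, with a median of -0.27 and none by 2-fold. Rad21 (chr15:51962240-51991747), the subunit that separase cuts, had 163, 158 and 154 in the KSFM-Ca2+ libraries and 119.6, 122 and 115 in the DKSFM libraries. Its log2 fold change was -0.41 (SE 0.03, adjusted p = 1.00e-05), the largest of the 3. Smc3 (chr19:53600398-53645833), an ATPase of the ring, had 64.8, 63.8 and 66.9 in the KSFM-Ca2+ libraries and 57.2, 54.1 and 55.6 in the DKSFM libraries. The lines were close but separate (log2 fold change -0.23, SE 0.04, adjusted p = 5.26e-04). Smc1a, the other ATPase, had -0.27 (adjusted p = 4.89e-04). When only the libraries whose files carry the word combined were compared, of which 1 is KSFM-Ca2+, Smc1a had -0.26 (adjusted p = 0.0130) and Pttg1 -0.21 (adjusted p = 0.0136), and neither passed the threshold. Cohesin acts throughout the cell cycle and condensin mostly in mitosis. The summed coverage of the condensin ATPase genes Smc2 and Smc4 over that of the cohesin ATPase genes Smc1a and Smc3 was 2.37, 2.41 and 2.45 in the KSFM-Ca2+ libraries and 1.50, 1.48 and 1.53 in the DKSFM libraries. The ratio was lower in every DKSFM library, so that the ATPase genes of the 2 kinds of ring changed unequally. Of the other subunits, Ncapd2 of condensin, with -0.37, fell no more than Rad21 of cohesin, with -0.41, while Ncapg and Ncaph fell further.

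The members covered a wide range of levels. Summed over the 50 members, normalized coverage was 5619, 5448 and 5414 in the KSFM-Ca2+ libraries and 3666, 3437 and 3504 in the DKSFM libraries, and the median member went from 72.9 to 38.9. The spread between replicates was small beside these differences. The median coefficient of variation over members was 3.28% in the KSFM-Ca2+ libraries, between 0.14% for Incenp and 8.96% for Cenpf, and 4.74% in the DKSFM libraries, between 0.53% for Kif4 and 14.4% for Cenpn. KSFM-Ca2+ replicate 1 was the highest of its line in 27 members, and DKSFM replicate 1 in 34 members. Without KSFM-Ca2+ replicate 1, 48 members were lower, 1 was higher and 14 were lower by at least 2-fold. Without DKSFM replicate 1, these counts were 48, 1 and 15. The median member nevertheless lay 0.71, 0.84 and 0.84 on the log2 scale below the KSFM-Ca2+ mean in DKSFM replicates 1, 2 and 3.

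**Figure D3:**
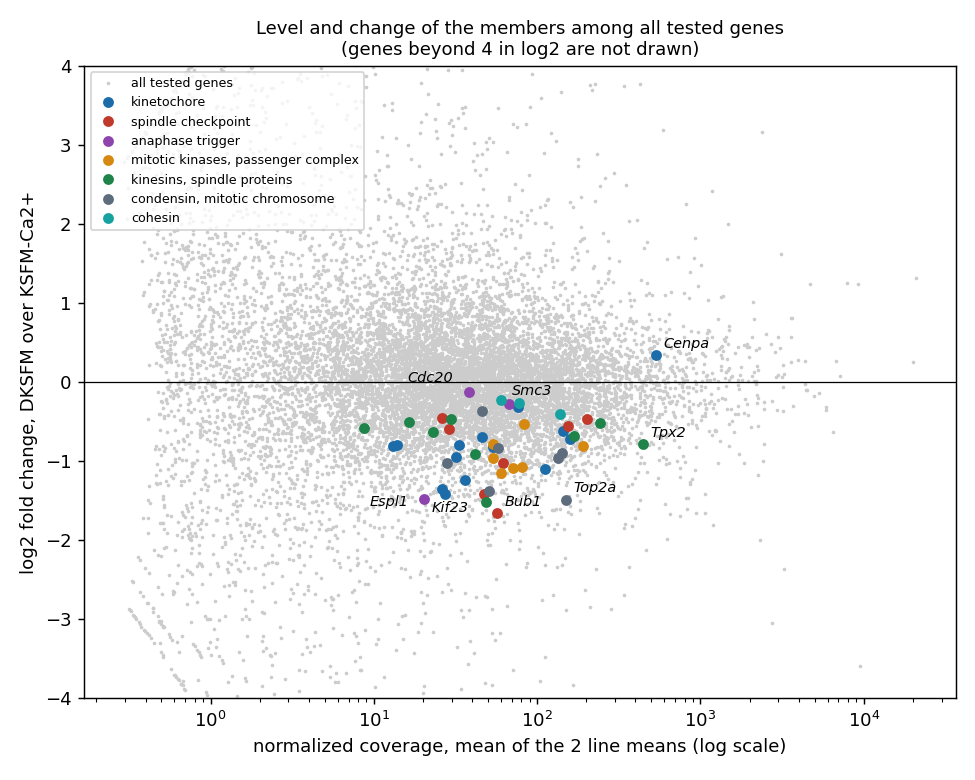
Log2 fold change against the mean normalized coverage of the lines, on a log axis, for all genes tested (grey, those within 4 on the log2 scale) and for the members, coloured by role. All members but Cenpa lie below the line at 0, at low and high coverage alike.

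**Figure D4:**
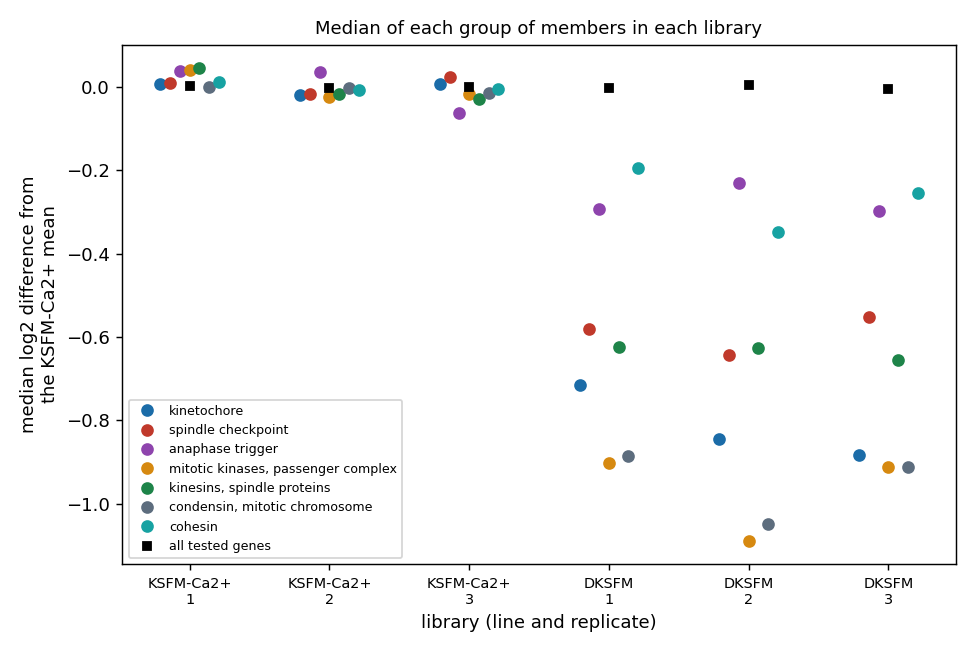
Median log2 difference of each group of members from the KSFM-Ca2+ mean, in each of the 6 libraries, with the median over all genes tested as black squares. In each DKSFM library the medians of cohesin and the anaphase trigger are nearest to 0 and those of the kinases with the passenger complex and of condensin are lowest.

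Another 96 genes of chromosome segregation, which do not belong to the 50, were compared in the same way, and all were tested. Their list too was written with earlier results of these data known. Of these, 69 (71.9%) were lower, against 37.1% of all genes tested, and 14 (14.6%) were lower by at least 2-fold, against 10.5%. Another 10 were higher, as were 35.5% of all genes, and 17 did not pass. The median log2 fold change was -0.56. Kntc1, which encodes the rod subunit of RZZ, had 27.7, 27.8 and 28.2 in the KSFM-Ca2+ libraries and 7.64, 7.59 and 7.32 in the DKSFM libraries. This fall, with a log2 fold change of -1.88 (SE 0.05, adjusted p = 1.42e-08), exceeded that of any member. Pbk, a mitotic kinase gene, had -1.65, and the kinesin gene Kif14, needed for cytokinesis, had -1.53. The genes with the largest rises were Nek6, a kinase gene of mitotic progression, with 0.59, Top2b with 0.59 and Cdc26, a small subunit of the anaphase-promoting complex, with 0.55. Top2b, the topoisomerase paralog of Top2a that is also made in cells that no longer divide, had a mean of 49.3 ± 2.18 in the KSFM-Ca2+ and 74.0 ± 0.743 in the DKSFM libraries (SD, n = 3). The paralogs thus moved in opposite directions, with standard errors of 0.03 for Top2a and 0.04 for Top2b. Nek6, Top2b and Cdc26 each overlap a gene on the other strand, whose reads may not have been separated, so these rises are less certain. Of the other 22 kinetochore genes, 17 were lower, 2 (Cenpx and Pmf1) were higher and 3 (Cenpc1, Cenpo and Cenpw) did not pass. Of the other 18 genes of the anaphase trigger, mostly subunits of the anaphase-promoting complex, 11 were lower, 4 (Anapc2, Anapc7, Anapc13 and Cdc26) were higher and 3 (Anapc16, Fzr1 and Ube2s) did not pass. Of the other 13 genes of cohesin, its regulators and its relatives, 7 were lower, 1, the loader gene Nipbl, was higher and 5 (Mau2, Pds5b, Smc6, Stag2 and Wapl) did not pass.

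The members are spread over 17 chromosomes. For each, the other tested genes within 10 Mb gave a median log2 fold change, which ranged from -0.54 around Cenpf to 0.51 around Ncapd2 with a median of -0.11. In 49 members the fold change was below that of the neighbours, and it was above them only for Cenpa, whose neighbours had 0.12. The median difference between a member and its neighbours was -0.72. The members nearest to their neighbours were Smc1a with -0.27 against -0.23, Smc3 with -0.23 against -0.13, Zw10 with -0.46 against -0.35 and Bub3 with -0.47 against -0.35. The lowest neighbours were those of Cenpn and Cenpf, with medians of -0.54 each, against -1.41 and -0.81 for these members. The part of the neighbourhood in the falls was not tested. In the annotation 12 members overlap a gene on the other strand, namely Cenpk, Mis12, Ska3, Bub3, Zwilch, Cdc20, Cdca8, Kif20a, Kif4, Kif18a, Prc1 and Ncapg. The study's methods give a strand setting for the alignment, but whether the deposited coverage was computed by strand is not stated, so reads of such a pair may not have been separated and these values are less certain. Small RNA genes lie inside Tpx2, Smc4 and Ncapd2 on the same strand.

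**Figure D5:**
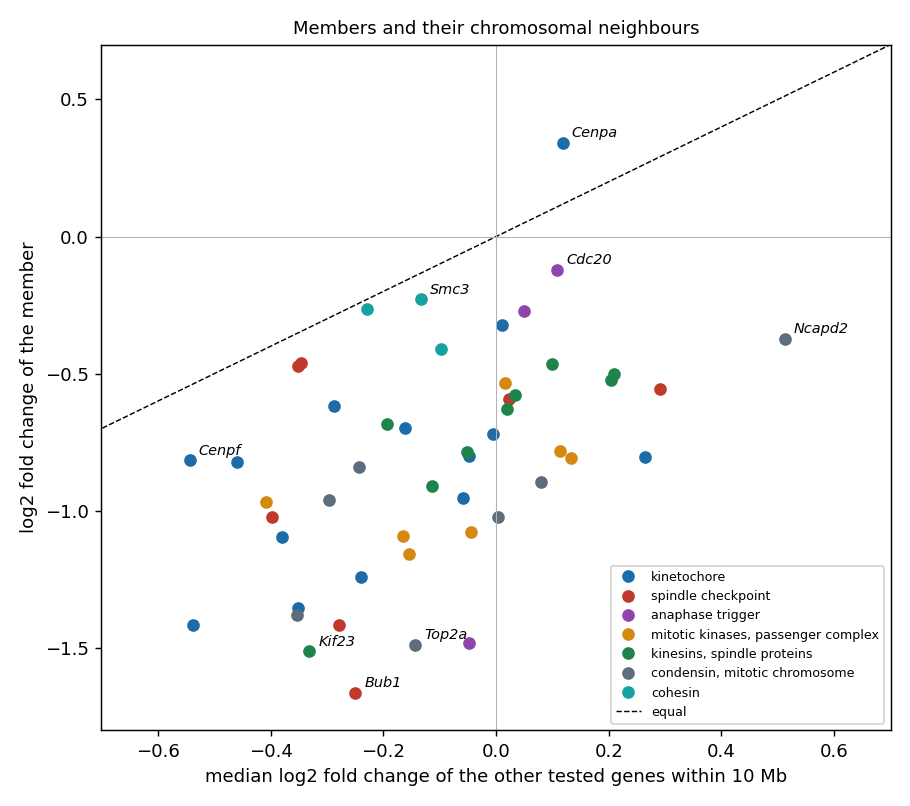
Log2 fold change of each member against the median log2 fold change of the other tested genes within 10 Mb of it, coloured by role. Of the 50 members, 49 lie below the dashed line of equal values and Cenpa lies above it.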

How the data were processed

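RNA-seq of 3 KSFM-Ca2+ and 3 DKSFM libraries was used, grouped by their titles. Per the study's methods and processing notes, the authors used STAR to align single reads to mm10, took their gene models from RefSeq, ran Salmon for quantification and DESeq2 for testing. The authors deposited 1 signal per gene, mean read coverage to 1 decimal without scaling, which is not a count. How coverage was computed, and why some files carry the word combined, is not given in the sources used here. The word stands in the files of all 3 DKSFM libraries but, among the KSFM-Ca2+ libraries, only in that of replicate 3. It therefore nearly coincides with the line. limma therefore took the place of a count model.

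Libraries were scaled by a trimmed mean of M values without weights, with trims of 0.3 (M) and 0.05 (A); the factors lay between 0.991 and 1.01. A gene was tested when its normalized coverage reached 0.5 in 3 libraries. The log2 of normalized coverage plus a pseudocount of 0.1 was modelled in limma 3.58.1 (R 4.3.3) with a trend on level, adjusting p by Benjamini-Hochberg. Adding the pseudocount understates changes of low genes. Calls needed an adjusted p under 0.01, and a fold of 2 is given beside them. The procedure was tested on simulated data. No library was a copy of another of its line, since at most 1.94% of 8926 genes had identical values in a pair. Repeats of the same culture would also differ, so this does not tell whether the replicates were separate cultures. Counting intervals are not given, as the values are not counts.

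Values per library are given for the member of each role with the highest mean, the largest and the smallest change, and any member higher or not past the threshold; of the other 96 genes, the 3 largest changes each way with a mean of at least 1 are named. Hjurp, Elovl1, Fgfr2, Rrm1, Rrm2, Ccna2 and the other genes named without values of their own were picked after their values were seen. The members and lists were chosen with earlier results of these data known. Gene positions are from GENCODE M21 (GRCm38), promoters from RefSeq. Other scalings, filters, pseudocounts, thresholds and models, a replicate block, each library left out and the combined libraries alone were tried. Python 3.11.15, numpy 2.4.6, pandas 2.3.3 and matplotlib 3.10.9 were also used.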

Additional observations from a re-analysis of the deposited data

How the results depend on the processing

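Each member was recomputed under 17 alternatives. Of 850 values, 848 kept their direction and their side of the threshold, none reversed, and 2 no longer passed, both with the combined libraries only: Pttg1 (log2 fold change -0.21, adjusted p = 0.0136; at most 0.0136 over its alternatives) and Smc1a (log2 fold change -0.26, adjusted p = 0.0130; at most 0.0130). That comparison has 1 KSFM-Ca2+ library, assumed to vary like the others, and 46 members were lower in it, against 48 under every other alternative. Cenpa stayed higher in all, with log2 fold changes from 0.30 to 0.42. Cdc20 passed in none, with log2 fold changes from -0.17 without KSFM-Ca2+ replicate 3 to -0.02 with the combined libraries only. Group medians moved by more than the SD between replicates for the kinesins (-0.68 with quantile normalization) and, with the combined libraries only, for the spindle checkpoint (-0.54) and the anaphase trigger (-0.21); the cause was not tested. Members lower by at least 2-fold numbered 14 to 15.

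With a replicate block, 48 members were lower, 1 was higher and 15 were lower by at least 2-fold. Same-numbered libraries deviated with correlations of -0.00508, 0.0239 and -0.0061, and only the libraries numbered 2 correlated best with their own number. No pairing by number was seen. With 3 libraries in each line, this cannot tell whether equal numbers shared a culture or a day. Coverage written to 1 decimal limits genes of low coverage, and the lowest mean of a member was 6.93 (Kif18a).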

Other observations

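Genes of other cell cycle phases, listed for comparison with earlier results of these data known, were tested in the same limma model. Of 15 genes of DNA replication, 14 (93.3%) were lower in the DKSFM cells, against 37.1% of all 12409 genes tested, and 9 of the 15 were lower by at least 2-fold, against 10.5% of all. Their median log2 fold change was -1.08. Rrm1, which encodes the large subunit of ribonucleotide reductase, was higher, with a mean normalized coverage of 212 ± 4.29 in the KSFM-Ca2+ and 291 ± 3.34 in the DKSFM libraries (SD, n = 3) and a log2 fold change of 0.46 (adjusted p = 1.12e-06). The gene of the small subunit, Rrm2, was lower, with a log2 fold change of -0.48 (adjusted p = 2.80e-06). All 7 genes of the G2/M cyclins, Cdk1 and their regulators were lower, with a median of -0.75, and only Ccna2 by at least 2-fold (log2 fold change -1.09, adjusted p = 1.88e-08). Ccna2 overlaps Exosc9 on the other strand, whose reads may not have been separated.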
